A study of Mus musculus with 40 samples.

Results

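The constitutive proteasome genes were described in CD11b+ cells sorted from mouse brain, that is in microglia and in the monocytes, macrophages and granulocytes that enter a glioma. Genes were taken by name, as every Psma, Psmb, Psmc, Psmd, Psme, Psmf or Psmg gene that carries a number, apart from the immunoproteasome subunits Psmb8, Psmb9 and Psmb10, and they had to average at least 1 RPKM (reads per kilobase of gene, scaled to the size of the library) over the samples of at least 1 of 3 deposited tables. Of 54513 rows, 45 had such a name and 44 passed. Psmb11, the thymus form of a catalytic subunit, was left out because it did not exceed a mean of 0.00613 RPKM in any group. Psma8, the form of Psma7 known from testis, was the member nearest to the limit. It had 1.37 RPKM under vehicle in the day 28 table and 2.22 RPKM under vehicle in U87-MG tumors. Its mean was under 1 RPKM in the day 21 table, where it was not tested and 43 members remained.

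The proteasome is the protease that degrades ubiquitin-tagged proteins in the cytosol and nucleus and makes most of the peptides shown on MHC class I. Its core particle is a barrel of outer alpha rings and inner beta rings, of which Psmb5, Psmb6 and Psmb7 carry the active sites. A regulatory particle made of a base, with a ring of ATPases, and a lid, with a deubiquitinase, recognises and unfolds tagged proteins, whereas the activators Psme1 to Psme4 open the core without ubiquitin. Interferon-gamma induces Psmb8, Psmb9 and Psmb10, which replace the constitutive active subunits, together with Psme1 and Psme2. In macrophages and microglia these forms serve antigen presentation.

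The study asked how a peptide that blocks integrin and osteopontin signalling (7aaRGD), alone or with an antibody against the checkpoint receptor PD-1, changes the myeloid cells of experimental gliomas. Messenger RNA was sequenced from CD11b+ cells of male mice aged 10 to 12 weeks. At day 21, 3 samples each, with cells of 2 animals pooled per sample, came from naive C57BL/6 brain and from C57BL/6 mice with GL261 tumors, a mouse glioma line, that received water (vehicle), 7aaRGD or 7aaRAE into the tumor through osmotic pumps. The control peptide, 7aaRAE, carries alanine and glutamate where 7aaRGD has the glycine and aspartate of its integrin-binding motif. At day 28, single mice with GL261 tumors had received vehicle (4 samples), 7aaRGD (4), anti-PD-1 (3) or both (3, the combination), where days 8, 10, 12 and 14 were the days of antibody (10 mg/kg) or, in the others, of IgG. These day 28 samples are named as nude mice in their labels and as C57BL/6 mice in the methods of the study. Athymic nude mice, which lack T cells, carried tumors of the human line U87-MG and received vehicle, 7aaRGD or 7aaRAE, with 3 samples each at day 21. By the methods of the study, cells of 2 animals were pooled per sample here too. A further sample each of anti-PD-1 and of the combination, and naive nude mice, were not analysed here.

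The 35 libraries each had between 9864 and 10725 rows of at least 1 RPKM. Read totals cannot be recovered from RPKM, so the depth of each library is unknown. Among myeloid markers, Itgam, which encodes CD11b, averaged 115 RPKM in naive cells, 59.5 RPKM in day 21 vehicle cells and 180 RPKM in U87-MG vehicle cells. Summed over 8 microglial markers, naive samples had 15640 to 16190 RPKM, GL261 samples at day 21 had 1294 to 2585 RPKM and U87-MG samples had 6498 to 10560 RPKM, while 8 monocyte and macrophage markers summed to 424 to 465 RPKM, 6480 to 7783 RPKM and 1401 to 4089 RPKM. Levels from different tables were normalized separately and no test was made across tables. In the U87-MG table, 1 library of 7aaRGD and 1 of 7aaRAE stood apart from the rest, and they are described with that tumor.

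For the genes on which the results turn, the stretch of DNA around the start of transcription was read from the RefSeq table of build GRCm38.p6, the build to which the reads were mapped under the name mm10. Windows from 250 bases before to 50 bases after the start were found for 36 of 44 members. The stretches shown have 100 bases before and 30 after the start, on the strand of the gene. Psme1 and Psmg4 are shown because they rose more than any core subunit with tumor, and both carry the letters GAAA-NN-GAAA (core of the interferon-stimulated response element, found on either strand, N being any base) just after the RefSeq start. For Psme1 the mouse annotation used for the levels places the gene at chr14:55578123-55581529. The whole stretch shown for Psme1 thus lies inside that span. Psmb5 and Psmb6 are shown because they are constitutive active subunits whose immune forms were measured beside them and because they carry TGACNNNGC, the core of the antioxidant response element bound by NFE2L1 and NFE2L2. The matching letters are in capitals.
Psme1, chr14:55578394-55578523, plus strand: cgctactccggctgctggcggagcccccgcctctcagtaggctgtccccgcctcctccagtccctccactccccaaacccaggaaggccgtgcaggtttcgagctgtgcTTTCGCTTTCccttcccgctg
Psmg4, chr13:34162864-34162993, plus strand: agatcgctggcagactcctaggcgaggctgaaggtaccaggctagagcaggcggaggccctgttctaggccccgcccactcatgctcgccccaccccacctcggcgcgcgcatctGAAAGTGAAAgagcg
Psmb5, chr14:54617966-54618095, minus strand: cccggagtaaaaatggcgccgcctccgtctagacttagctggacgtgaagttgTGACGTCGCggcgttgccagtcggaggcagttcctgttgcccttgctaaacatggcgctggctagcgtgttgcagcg
Psmb6, chr11:70525257-70525386, plus strand: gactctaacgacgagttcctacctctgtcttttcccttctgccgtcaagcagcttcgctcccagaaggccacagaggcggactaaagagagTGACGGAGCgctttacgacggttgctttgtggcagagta

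GAAA-NN-GAAA was present in 5 of 36 members (Psmb3, Psmd4, Psmd9, Psme1 and Psmg4), or 13.9%, against 4% of 26742 genes with a window of that length. TGACNNNGC was present in 6 of 36 members, or 16.7%, against 14% of genes. The members were Psmb5, Psmb6, Psmc6, Psmd9, Psmd12 and Psme4. CCAAT was present in 33.3% of members and 41% of genes, GAANNTTC (heat shock element core) in 5.56% and 9.08%, and TTCNNNGAA (interferon-gamma activated site) in 5.56% and 9.6%. All were searched on both strands, and the interferon motifs were added after the values had been seen. Such matches are letters in a window and were not tested for binding or for a link to the changes in level. All 5 members with GAAA-NN-GAAA rose with tumor at day 21, as did 33 of 43 members tested. Under the combination at day 28, Psmb3, Psmd4, Psmd9 and Psmg4 were among the 10 of 44 members that fell, and Psme1 was not. Psme2, the member with the largest rise, held neither interferon motif in its window.

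The comparison of vehicle-treated GL261 tumors with naive brain at day 21 asks how the gene set differs between myeloid cells of a tumor and those of a healthy brain. Of 43 members tested, 33 were higher in the tumor and 3 lower, with a median log2 fold change of 0.65, in a background where 34.6% of all 9728 genes tested were higher, 48.2% were lower and the median was -0.14 (limma on log2(RPKM + 1), adjusted p under 0.05). These p-values measure only the spread between the samples. The activators Psme1 and Psme2 had the largest log2 fold changes, and all 14 core subunits tested rose (median 0.97). Of the 17 regulatory particle subunits among the members, 12 rose and 1 fell (median 0.27). Where the libraries were scaled with median-of-ratios factors, the median of all genes moved to 0.00598, that of the members to 0.82, and 40 members were higher and 2 lower, and with upper-quartile factors the median of all genes was -0.20, and 30 members were higher and 3 lower. In the same samples all 8 microglial markers were lower and all 8 monocyte and macrophage markers higher, with medians of -3.43 and 4.27 on the log2 scale, and 8 of 8 proliferation genes tested were higher. Of 5 neutrophil markers tested 4 were lower (median -1.06, summed 369 to 442 RPKM in naive and 120.5 to 242 RPKM in vehicle samples), and of 7 cytosolic heat shock genes 4 were lower and 1 higher (median -0.60, summed 365 to 553 RPKM and 545 to 574.5 RPKM). Their part in the result was not tested, and in bulk samples fewer cells of a type and less RNA per cell cannot be told apart.

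**Figure D1:**
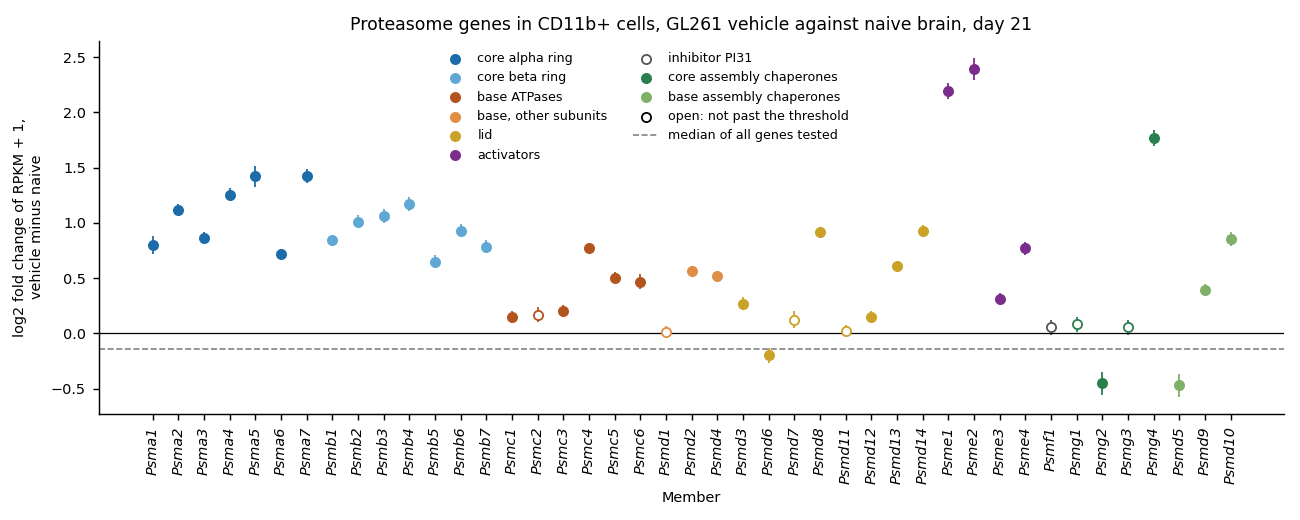
Log2 fold change of RPKM + 1 (vehicle minus naive, GL261 day 21, n = 3 each) for 43 members, ordered by role and coloured by it. Points are estimates with standard errors, filled where the adjusted p was under 0.05, and the dashed line is the median of all genes tested at -0.14. All 14 core subunits lie between 0.65 and 1.43, whereas the 17 regulatory particle subunits among the members lie between -0.20 and 0.93. Sem1, a lid subunit that the name rule does not take, is not shown and was at 1.89.

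Among activators, Psme2 and Psme1 form the interferon-inducible cap PA28. Psme2 was 36.0, 34.6 and 35.4 RPKM in naive samples and 159, 204 and 210 RPKM in vehicle samples, a log2 fold change of 2.39 (SE 0.10, limma adjusted p = 2.13e-07). Psme1 was 43.4, 45.4 and 43.0 RPKM in naive and 185, 219 and 210 RPKM in vehicle samples, a log2 fold change of 2.19 (SE 0.07, limma adjusted p = 6.63e-08). Psme1 (chr14:55578123-55581529, plus strand) and Psme2 (chr14:55587441-55591113, minus strand) are neighbours in build mm10. Neither gene had overlapping groups, and both went from levels near those of core subunits to the highest of all members. Psme2b, a near copy of Psme2 in the same table with which reads may be divided, averaged 14.9 RPKM in naive and 25.2 RPKM in vehicle samples. The other activators rose less. Psme4, the nuclear activator PA200, went from 6.67 to 12.1 RPKM (log2 fold change 0.77, SE 0.06, limma adjusted p = 5.35e-06). Psme3, the nuclear activator PA28-gamma, went from 25.3 to 31.8 RPKM (0.31, SE 0.05, limma adjusted p = 0.0007).

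The alpha ring, which gates entry to the core, rose in all 7 members tested, with a median log2 fold change of 1.12. Psma7 was 18.2, 18.1 and 18.0 RPKM in naive samples and 46.4, 51.4 and 53.4 RPKM in vehicle samples (log2 fold change 1.43, SE 0.06, limma adjusted p = 2.34e-07). Psma5 was 27.4, 26.3 and 23.4 RPKM in naive and 61.5, 77.1 and 73.8 RPKM in vehicle samples (1.42, SE 0.10, limma adjusted p = 2.55e-06). Neither Psma7 nor Psma5 had a vehicle sample within the naive range. Psma4 rose from a mean of 21.8 to 53.3 RPKM and Psma2 from 15.2 to 34.2 RPKM, with log2 fold changes of 1.26 and 1.12. Psma1 went from 23.0 to 40.8 RPKM, Psma3 from 10.7 to 20.3 RPKM and Psma6 from 51.4 to 85.2 RPKM, with log2 fold changes of 0.80, 0.87 and 0.72. These 7 proteins are built into each ring in equal number, but their transcripts were not at equal levels, and Psma6, the highest, stood 4.81-fold above Psma3, the lowest, in naive cells and 4.196-fold above it in vehicle cells, as RPKM per annotated length.

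The beta ring rose in all 7 constitutive members, with a median log2 fold change of 0.93. Psmb4, a structural subunit, was 38.9, 41.5 and 37.4 RPKM in naive samples and 85.6, 92.7 and 90.5 RPKM in vehicle samples (log2 fold change 1.17, SE 0.06, limma adjusted p = 5.40e-07). Psmb5, the chymotrypsin-like active subunit, had the smallest rise of the core, from 43.7, 41.9 and 42.6 RPKM to 71.3, 67.3 and 64.4 RPKM (0.65, SE 0.06, limma adjusted p = 1.12e-05). Both still separated the groups without overlap. Psmb6 and Psmb7, the other constitutive active subunits, went from 30.7 to 59.4 RPKM and from 13.96 to 24.8 RPKM. Of the structural subunits, Psmb1 went from 15.3 to 28.4 RPKM, Psmb2 from 37.2 to 76.0 RPKM and Psmb3 from 19.1 to 41.1 RPKM.

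The immune forms had larger log2 fold changes than the subunits they replace. Psmb8, which replaces Psmb5, was 36.2, 36.6 and 33.6 RPKM in naive and 154.5, 204 and 199 RPKM in vehicle samples (log2 fold change 2.35, SE 0.11, limma adjusted p = 2.77e-07). Psmb9, which replaces Psmb6, averaged 9.87 and 60.9 RPKM, and Psmb10, which replaces Psmb7, averaged 48.4 and 184 RPKM (2.50 and 1.90). As a share of the summed RPKM of each pair, Psmb8 took 44.1% to 46.6% in naive and 68.4% to 75.6% in vehicle samples, Psmb9 took 24.0% to 24.9% and 45.0% to 54.3%, and Psmb10 took 76.7% to 79.0% and 85.9% to 89.8%. None of the 3 ranges overlapped between the groups, so the constitutive active subunits rose in level while their share of the catalytic transcripts was lower.

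The ATPases at the base of the regulatory particle had a median log2 fold change of 0.33, and 5 of 6 were higher. Psmc4 went from 26.3 to 45.8 RPKM (0.78), Psmc5 from 42.0 to 59.98 RPKM (0.50) and Psmc6 from 13.1 to 18.6 RPKM (0.47). Psmc3 went from 46.0 to 52.9 RPKM (0.20) and Psmc1 from 35.3 to 39.3 RPKM (0.15), and Psmc2 was 16.8 and 19.0 RPKM (0.17, limma adjusted p = 0.0504). Among the other base subunits, Psmd2, the scaffold, went from 40.8 to 60.6 RPKM, and Psmd4, a ubiquitin receptor, from 27.4 to 39.7 RPKM, with log2 fold changes of 0.56 and 0.52. Psmd1, the largest scaffold, was 12.9, 13.9 and 13.8 RPKM in naive and 14.02, 13.3 and 13.6 RPKM in vehicle samples, and these groups overlapped (0.01, SE 0.05, limma adjusted p = 0.863).

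The lid was mixed, with 5 of 8 members higher, 1 lower and a median log2 fold change of 0.21. Psmd14, the deubiquitinase of the particle, was 13.5, 13.1 and 12.96 RPKM in naive and 25.5, 25.0 and 27.3 RPKM in vehicle samples (log2 fold change 0.93, SE 0.05, limma adjusted p = 1.14e-06). Psmd8 rose alike, from 27.4 to 52.6 RPKM (0.91), and Psmd13 from 16.2 to 25.2 RPKM (0.61). Psmd3 went from 21.9 to 26.6 RPKM (0.27) and Psmd12 from 17.5 to 19.5 RPKM (0.15). Psmd7, the partner of Psmd14, was 25.7 and 28.0 RPKM, and Psmd11 was 11.45 and 11.7 RPKM, with adjusted p of 0.168 and 0.676 in limma. Psmd6 fell from 18.6, 21.6 and 21.2 RPKM to 17.9, 17.4 and 17.6 RPKM (-0.20, SE 0.07, limma adjusted p = 0.0209). The small fall of Psmd6 and the small rises of Psmc1, Psmc3 and Psmd12 lost their calls under another scaling of the libraries, where Psmd6 was -0.03 with median-of-ratios factors, and Psmc1, Psmc3 and Psmd12 were 0.08, 0.13 and 0.08 with upper-quartile factors.

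Assembly factors moved both ways. Psmg4, a chaperone that builds the alpha ring, was 7.90, 7.51 and 8.60 RPKM in naive and 27.6, 30.4 and 31.0 RPKM in vehicle samples, the third largest rise of all members (log2 fold change 1.77, SE 0.07, limma adjusted p = 1.41e-07). Its partner Psmg3 was 2.94 and 3.09 RPKM (0.05, limma adjusted p = 0.456). Of the other core chaperone pair, Psmg1 was 6.92 and 7.39 RPKM (0.08, limma adjusted p = 0.267), whereas Psmg2 fell from 5.73, 6.50 and 7.39 RPKM to 5.22, 4.10 and 4.23 RPKM (-0.45, SE 0.11, limma adjusted p = 0.00409). Only Psmg4 among the 4 thus rose, and the groups of Psmg2 did not overlap. The base is assembled by other chaperones, of which Psmd10 rose from 10.47 to 19.7 RPKM (0.85) and Psmd9 from 2.39 to 3.45 RPKM (0.39). Psmd5, another chaperone of the base, fell from 3.91, 5.23 and 5.18 RPKM to 3.34, 2.89 and 3.22 RPKM (-0.47, SE 0.10, limma adjusted p = 0.00276). Psmf1, the inhibitor PI31, was 5.31 and 5.57 RPKM (0.06, limma adjusted p = 0.452).

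The ratio of the mean RPKM of the 14 core subunits to that of the 17 regulatory particle subunits among the members gave the imbalance per sample. Sem1, a lid subunit that the name rule does not take, is not among these 17. The ratio was 1.05 to 1.08 in naive samples and 1.56 to 1.66 in vehicle samples, with no overlap. The summed share of the members among protein-coding RPKM went from between 0.338% and 0.343% to between 0.555% and 0.599%. This ratio does not change with the scaling of a library.

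Genes around the proteasome did not follow as a block. Of 15 partners tested, 4 were higher and 5 lower. Sem1, the small lid subunit, had the largest rise (10.7 to 42.3 RPKM, log2 fold change 1.89), and Pomp, the maturation factor of the core, went from 13.03, 13.7 and 14.7 RPKM to 26.2, 26.7 and 28.0 RPKM (0.92, SE 0.06, limma adjusted p = 2.21e-06). Akirin2, which carries proteasomes into the nucleus, had the largest fall (59.3 to 18.3 RPKM, -1.64), followed by the ubiquitin shuttles Ubqln2 (-0.82) and Ubqln4 (-0.57). Of 5 ubiquitin genes, 3 were higher, namely Rps27a, Ubb and the activating enzyme Uba1 (1.06, 0.51 and 0.57), and Uba6 was lower (-0.46). Of 6 control genes, Keap1, Nfe2l2 and Ddi2 were higher (0.52, 0.40 and 0.27) and Ngly1 and Vcp lower (-0.34 and -0.16). Nfe2l1, which drives transcription of proteasome subunits when the proteasome fails, was 27.5, 27.8 and 27.0 RPKM in naive and 26.1, 26.8 and 28.3 RPKM in vehicle samples (-0.02, SE 0.05, limma adjusted p = 0.747). The groups of Nfe2l1 overlapped. The part of these control genes in the levels of the members was not tested.

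**Figure D2:**
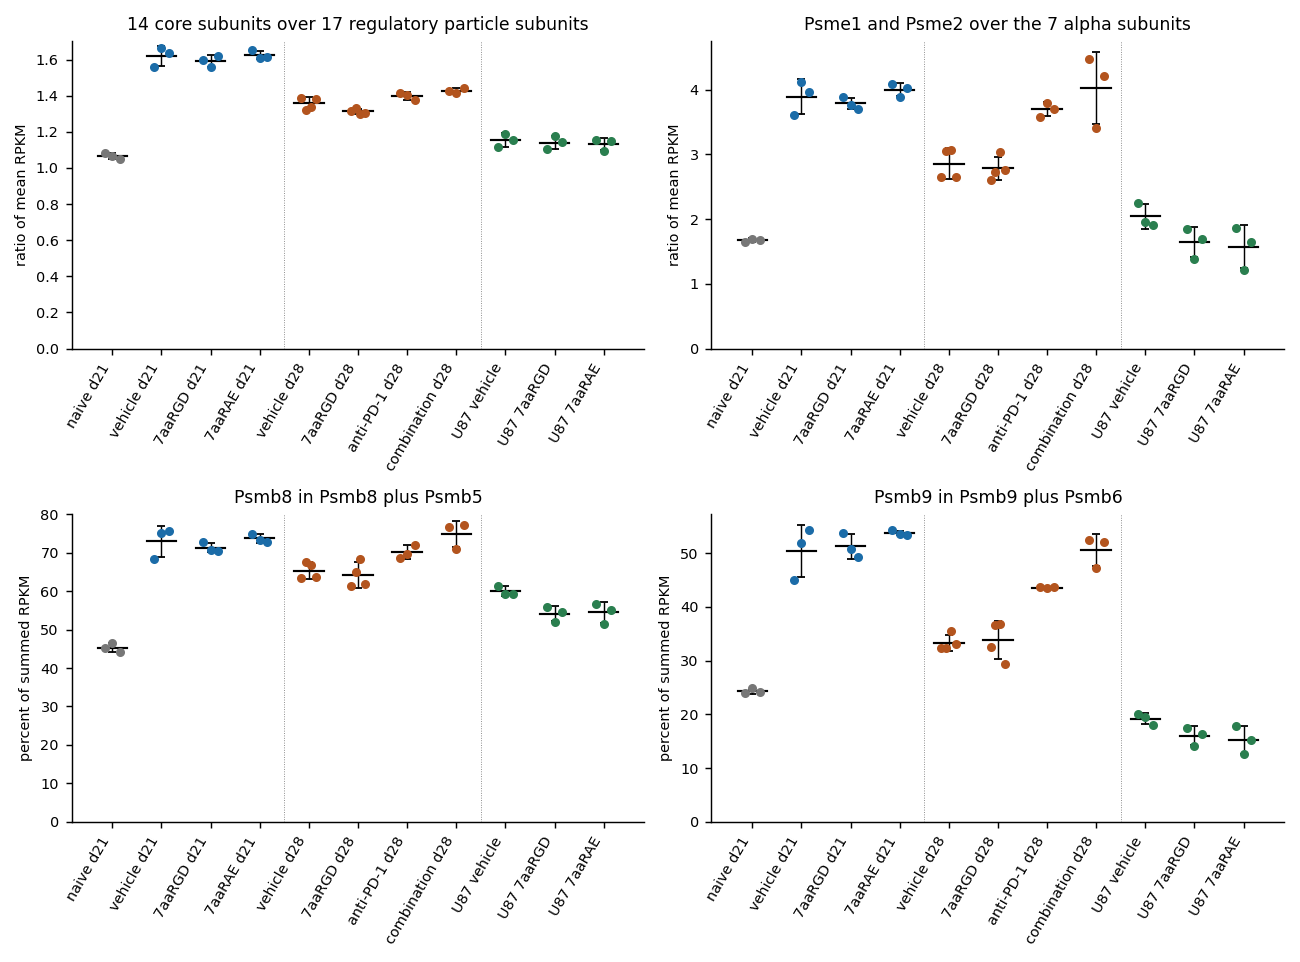
Ratios and shares per sample in 11 groups (points, with mean and SD), for mean RPKM of core over regulatory particle, mean RPKM of Psme1 and Psme2 over the alpha ring, and the percent of Psmb8 and Psmb9 in the summed RPKM with Psmb5 and Psmb6. Dotted lines part the 3 separately normalized tables. The core ratio of naive samples lies at 1.05 to 1.08 and that of day 21 tumor samples at 1.56 to 1.66, and the Psmb9 share at day 28 lies at 32.4% to 35.5% under vehicle and at 47.2% to 52.5% under the combination.

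The peptides at day 21 were compared with vehicle and with each other, at the same concentration in the pump (2 mg/ml) and the same time. No member passed the threshold in any of the 3 comparisons. For 7aaRGD against vehicle, 0.138% of 9441 genes were higher and 0.0106% lower. An unadjusted p under 0.05 was found for 0 of 43 members and 1280 of 9441 genes. The largest rise was in Psmg2 (4.52 to 5.26 RPKM, log2 fold change 0.19, limma adjusted p = 0.448) and the largest fall in Psmd10 (19.7 to 18.2 RPKM, -0.11, limma adjusted p = 0.471). For 7aaRAE against vehicle, 0% of genes were higher and 0% lower, and 2 of 43 members and 601 of 9441 genes had an unadjusted p under 0.05. The extremes were Psma7 (50.4 to 52.5 RPKM, 0.06) and Psmg1 (7.39 to 6.45 RPKM, -0.17), with limma adjusted p of 0.865 and 0.718. The median of the members was -0.01 under 7aaRGD and -0.04 under 7aaRAE. Both comparisons share the vehicle samples.

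Between 7aaRGD and 7aaRAE, which differ in the integrin-binding motif, 0% of genes were higher and 0% lower. An unadjusted p under 0.05 was found for 1 of 43 members and 521 of 9441 genes. The largest difference toward 7aaRGD was in Psmg3 (3.10 against 2.72 RPKM, log2 fold change 0.14, limma adjusted p = 0.970) and the largest toward 7aaRAE in Psme4 (11.2 against 12.3 RPKM, -0.13, limma adjusted p = 0.990). The 95% intervals of the 43 log2 differences, taken singly, lay between -0.36 (Psme2) and 0.36 (Psmg2) at their outermost ends, and the narrowest, of Psmd11, ran from -0.07 to 0.14. Core over regulatory particle was 1.56 to 1.62 under 7aaRGD and 1.61 to 1.65 under 7aaRAE, and 1.56 to 1.66 under vehicle. None of the immune subunits passed the threshold. Psmb8 averaged 186, 176 and 182 RPKM, Psmb9 60.9, 58.8 and 63.0 RPKM and Psmb10 184, 172 and 177 RPKM under vehicle, 7aaRGD and 7aaRAE. Pomp averaged 27.0, 26.4 and 27.1 RPKM and Nfe2l1 27.1, 27.5 and 28.3 RPKM in the same order. None of the partner, control or ubiquitin genes passed.

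At day 28, 7aaRGD alone also moved no member past the threshold, where 0.123% of 9737 genes were higher and 0.524% lower. The nearest was Psmg4, which was 28.2, 25.0, 31.9 and 27.3 RPKM under vehicle and 22.6, 22.7, 19.1 and 22.2 RPKM under 7aaRGD. These samples did not overlap (log2 fold change -0.36, SE 0.08, limma adjusted p = 0.0518), and the gene passed the threshold under 5 of the other settings tried. The largest rise was in Psmd12 (19.9 to 21.8 RPKM, 0.12, limma adjusted p = 0.440). In all, 3 of 44 members and 1421 of 9737 genes had an unadjusted p under 0.05. Psmb8, Psmb9 and Psmb10 had log2 fold changes of -0.05, -0.10 and -0.09, Pomp 0.07 and Nfe2l1 0.05, and no gene of the other lists passed.

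Anti-PD-1 at day 28 raised 2 members and lowered 4 of 44, in a background of 10.8% of genes higher and 12.2% lower. The share of members called, 6 of 44, was not above this background and is no result about the set, so the single genes are described. Psme2 was 71.2, 76.9, 97.8 and 81.8 RPKM under vehicle and 137, 136 and 131 RPKM under anti-PD-1 (log2 fold change 0.72, SE 0.11, limma adjusted p = 0.000732). Psmd10 was 12.7, 13.1, 13.3 and 13.9 RPKM under vehicle and 15.8, 15.7 and 16.6 RPKM under anti-PD-1 (0.26, SE 0.08, limma adjusted p = 0.0350). Neither gene had overlapping groups. Psme1 averaged 157 and 189 RPKM, with groups that did not overlap, and missed the threshold (0.27, limma adjusted p = 0.0509).

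The members that fell were an ATPase, a beta subunit, a chaperone of the core (Psmg4) and a chaperone of the base (Psmd9). Psmc1 fell from 66.3, 63.8, 75.1 and 68.2 RPKM to 55.2, 51.5 and 55.4 RPKM (-0.33, SE 0.06, limma adjusted p = 0.00306). Psmg4 fell from a mean of 28.1 to 22.7 RPKM (-0.30), Psmd9 from 4.07 to 3.30 RPKM (-0.24) and Psmb3 from 41.0 to 34.99 RPKM (-0.22), with limma adjusted p of 0.0229, 0.0206 and 0.0271. Their groups did not overlap. Without the second anti-PD-1 sample 2 members passed, and without the third 3 passed. Psme2 and Psmc1 were called in each of these fits. Psmb8, Psmb9 and Psmb10 were higher (0.40, 0.62 and 0.38, limma adjusted p = 0.00226, 0.00105 and 0.00978). Pomp (0.23, limma adjusted p = 0.0746) and Nfe2l1 (0.10, limma adjusted p = 0.385) did not pass. Of the lists, Nfe2l2 was higher and Ddi2 lower of 6 control genes (0.60 and -0.21), Uchl5 lower of 15 partners (-0.55), and Uba1 higher and Rps27a lower of 5 ubiquitin genes (0.32 and -0.45).

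**Figure D3:**
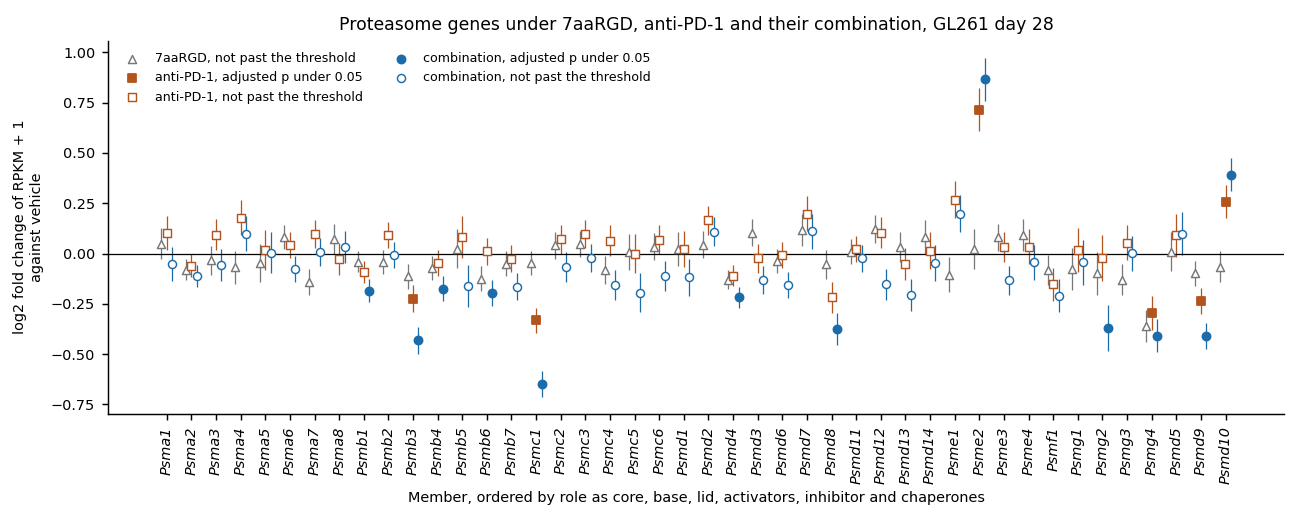
Log2 fold change of RPKM + 1 against vehicle at day 28 for 44 members under 7aaRGD (triangles, n = 4), anti-PD-1 (squares, n = 3) and the combination (circles, n = 3), with standard errors, filled where the adjusted p was under 0.05. The 3 comparisons share 4 vehicle samples. Psme2 stands highest, at 0.72 and 0.87 under anti-PD-1 and the combination, and Psmc1 lowest, at -0.33 and -0.65.

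Under the combination, 2 members were higher and 10 lower than under vehicle, in a background of 17.5% of genes higher and 25.8% lower. The median of the members was -0.11 and that of all genes -0.05. With median-of-ratios factors the split was 3 higher and 8 lower and the median of the members -0.06, and with upper-quartile factors 2 were higher and 11 lower. Psme2 was 170, 132 and 148 RPKM (log2 fold change 0.87, SE 0.11, limma adjusted p = 4.43e-05), above each vehicle sample. Psmd10 was 18.1, 17.2 and 17.9 RPKM (0.39, SE 0.08, limma adjusted p = 0.00177), also without overlap. Psme1 averaged 181 RPKM, and its samples overlapped those of vehicle (0.20, limma adjusted p = 0.0977).

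Psmc1 was 43.2, 43.5 and 43.0 RPKM under the combination and at least 63.8 RPKM in every vehicle sample, the largest fall (-0.65, SE 0.06, limma adjusted p = 8.40e-06). Psmb3 fell from 40.0, 39.3, 43.2 and 41.5 RPKM to 30.3, 30.3 and 29.9 RPKM (-0.43, SE 0.07, limma adjusted p = 0.00022). Psmd9 fell from 4.34, 3.81, 3.77 and 4.34 RPKM to 2.83, 2.71 and 2.90 RPKM (-0.41, SE 0.07, limma adjusted p = 0.000286). The values of these 3 members in the combination lay within narrow ranges below all vehicle samples. Psmg4 fell from 28.1 to 20.9 RPKM (-0.41), Psmd8 of the lid from 45.2 to 34.5 RPKM (-0.38) and Psmg2 from 5.92 to 4.35 RPKM (-0.37), with limma adjusted p of 0.00177, 0.00189 and 0.0179. Psmd4, Psmb6, Psmb1 and Psmb4 had smaller falls, between -0.22 and -0.17, with limma adjusted p from 0.0048 to 0.0385. Among these, Psmb4 lost its call in 9 of 18 alternatives, Psmb6 in 6 and Psmb1 in 3. The share of members that fell, 10 of 44, was not above the background and is no result about the set.

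Psmb8, Psmb9 and Psmb10 rose under the combination (0.50, 0.81 and 0.38, limma adjusted p = 0.00015, 4.27e-05 and 0.00441). The share of Psmb9 in its pair was 32.4% to 35.5% under vehicle, 43.5% to 43.7% under anti-PD-1 and 47.2% to 52.5% under the combination, and that of Psmb8 was 63.4% to 67.6%, 68.7% to 72.2% and 71.0% to 77.2%. Core over regulatory particle was 1.32 to 1.39, 1.38 to 1.42 and 1.42 to 1.44. Nfe2l1 rose from 25.2, 25.9, 24.5 and 23.5 RPKM to 31.6, 29.3 and 30.3 RPKM (0.29, SE 0.08, limma adjusted p = 0.00814), and Pomp was 21.7 and 24.0 RPKM (0.14, limma adjusted p = 0.198). Of control genes, Nfe2l2 was also higher and Ddi2 lower (0.95 and -0.36). Of 15 partners, Ecpas was higher (0.24) and Uchl5, Zfand5 and Adrm1 lower (-0.74, -0.60 and -0.22). Of 5 ubiquitin genes, Uba1 and Uba6 were higher (0.41 and 0.46) and Rps27a lower (-0.70).

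Markers moved with these treatments. The 8 monocyte and macrophage markers summed to 3927 to 4606 RPKM under vehicle, 5045 to 6977 RPKM under anti-PD-1 and 6572 to 8774 RPKM under the combination, with 5 of 8 higher in each comparison. The microglial markers summed to 1533 to 2167 RPKM, 1715 to 2470 RPKM and 2281 to 2431 RPKM, with 1 of 8 and 5 of 8 higher. NK and T cell markers summed to 2.33 to 8.69 RPKM, 2.12 to 50.5 RPKM and 20.6 to 69.7 RPKM, with 0 of 5 and 4 of 5 higher. Cytosolic heat shock genes summed to 390 to 553 RPKM, 444.5 to 545 RPKM and 478 to 756 RPKM, with 2 of 7 and 5 of 7 higher (median 0.79 under the combination). Of 5 dendritic cell markers only Cd209a was tested, and it was higher in both (1.89 and 2.57). These 5 markers summed to only 0.715 to 1.83 RPKM, 2.6 to 13.8 RPKM and 6.46 to 12.15 RPKM. Of 10 proliferation genes 0 and 2 were lower. The part of these shifts in the results on the members was not tested.

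Adding 7aaRGD to anti-PD-1 changed no member past the threshold, where 0.0205% of genes were higher and 0.0205% lower, and 40 of 44 members and 61.1% of genes had a log2 fold change below 0, with medians of -0.11 and -0.04. With median-of-ratios factors these medians were -0.06 and 0.00. In 19 of 44 members every combination sample was below every anti-PD-1 sample, against 15.3% of genes. Such counts also exceeded the share of genes in some, but not all, other comparisons where no member was called. Those not above it included 2 of 43 against 5.12% for 7aaRGD below vehicle at day 21. Another was 2 of 44 against 9.46% for 7aaRAE below vehicle in U87-MG. Counts above it were 8 of 44 against 3.01% for 7aaRGD below 7aaRAE in U87-MG and 8 of 43 against 6.49% for 7aaRAE below vehicle at day 21. The largest fall was in Psmg2 (5.83 to 4.35 RPKM, -0.35, limma adjusted p = 0.204), and Psmc1 was next (54.0 to 43.2 RPKM, -0.31, limma adjusted p = 0.0768). The largest rise was in Psme2 (134 to 150 RPKM, 0.15, limma adjusted p = 0.567). In all, 9 of 44 members and 1460 of 9737 genes had an unadjusted p under 0.05. Psmb8, Psmb9 and Psmb10 had log2 fold changes of 0.10, 0.19 and 0.00, Pomp -0.08 and Nfe2l1 0.19, none past the threshold.

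The interaction term asks whether the effect of 7aaRGD depended on anti-PD-1. It passed for 0 members, with 0% of genes positive and 0% negative. An unadjusted p under 0.05 was found for 4 of 44 members and 794 of 9737 genes. The most negative was Psmd12 (-0.38, limma adjusted p = 0.588) and the most positive Psmg4 (0.25, limma adjusted p = 0.616). For Psmb8, Psmb9, Psmb10, Pomp and Nfe2l1 it was 0.15, 0.29, 0.10, -0.15 and 0.14, none past the threshold.

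**Figure D4:**
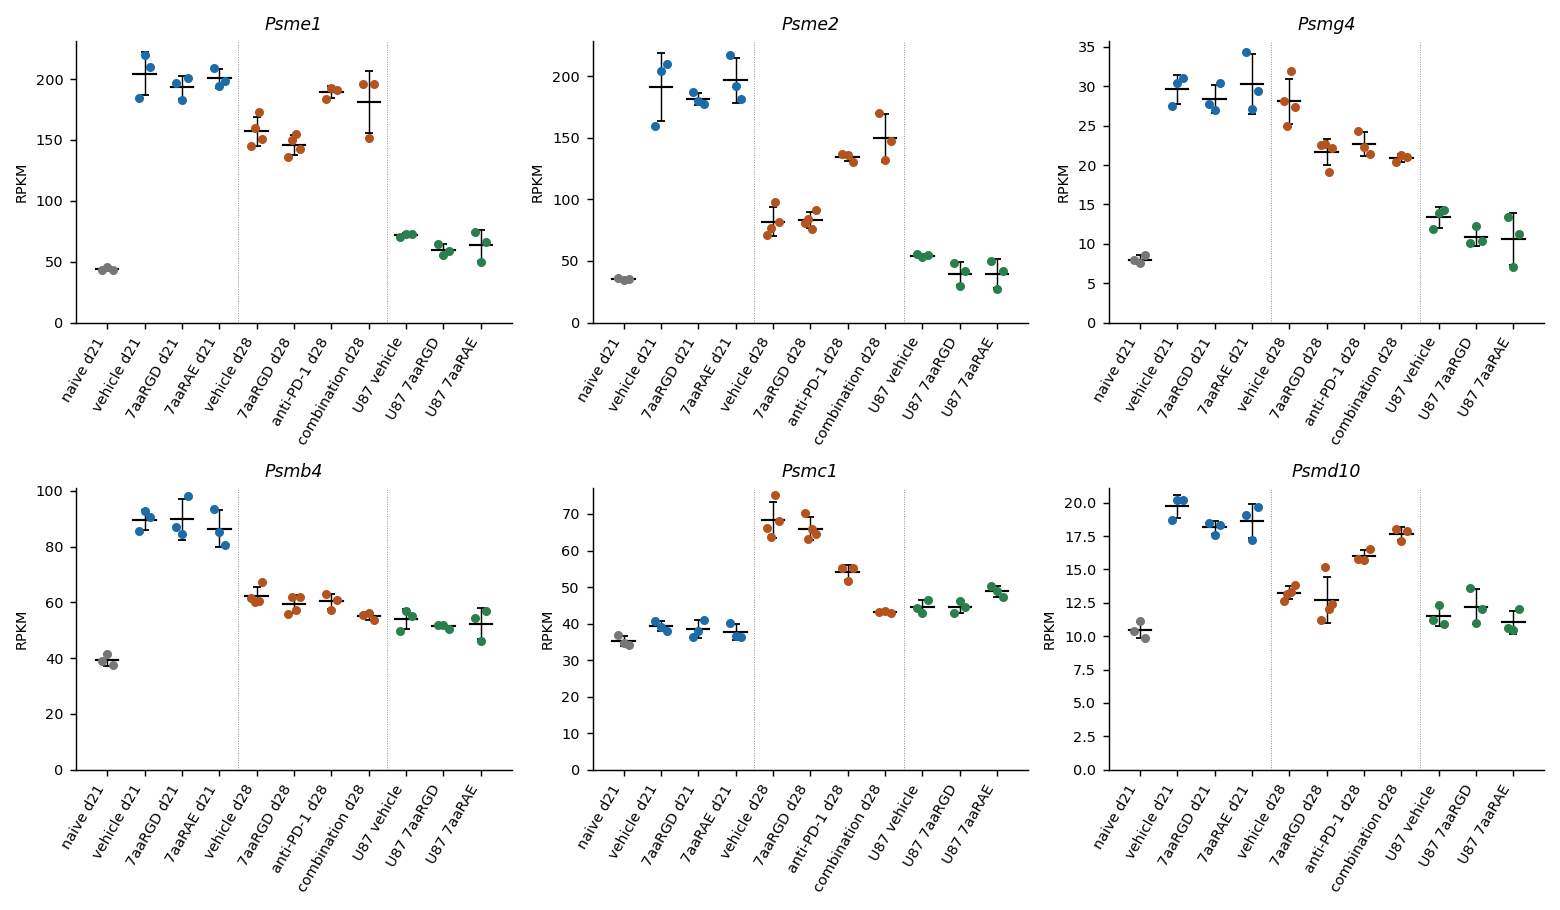
RPKM per sample (points) with mean and SD for Psme1, Psme2, Psmg4, Psmb4, Psmc1 and Psmd10 in 11 groups, of 3 or 4 samples each. Dotted lines part the 3 separately normalized tables. Psme2 lies at 34.6 to 36.0 RPKM in naive samples and at 159 RPKM or more under day 21 vehicle, and Psmc1 lies at 43.0 to 43.5 RPKM under the combination at day 28.

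In U87-MG tumors of nude mice no member passed the threshold. For 7aaRGD against vehicle, 0% of 9665 genes were higher and 0% lower. An unadjusted p under 0.05 was found for 2 of 44 members and 364 of 9665 genes. Psme2 had the largest fall, from 55.3, 53.1 and 54.4 RPKM under vehicle to 48.1, 29.4 and 41.8 RPKM, and Psme4 the largest rise, from 7.77, 6.66 and 8.79 RPKM to 6.66, 12.1 and 8.76 RPKM (-0.47 and 0.19, limma adjusted p = 0.941 and 0.942). For 7aaRAE against vehicle, 0.0103% of genes were higher and 0% lower, and 2 of 44 members and 746 of 9665 genes had an unadjusted p under 0.05. Psme2 again had the largest fall, to 49.8, 26.8 and 41.9 RPKM (-0.49, limma adjusted p = 0.647), and Psma6 the largest rise, from 59.97 to 70.9 RPKM (0.24, limma adjusted p = 0.626).

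In both peptide groups 1 library carried the extremes, with Psme2 at 29.4 and 26.8 RPKM and Psme4 at 12.1 and 14.2 RPKM. Psmb8 was also lowest in these libraries, at 24.15 and 20.7 RPKM, against 36.3 to 40.3 RPKM under vehicle. They also had the lowest microglial sums of their groups, 6498 and 7215 RPKM, and the highest monocyte and macrophage sums, 4089 and 2543 RPKM. The part of this mix in the values was not tested. Without both libraries the count was 0 in each comparison. In its pair, Psmb8 took 59.2% to 61.5% under vehicle, 52.0% to 55.8% under 7aaRGD and 51.6% to 56.7% under 7aaRAE. The share of Psmb9 was 18.1% to 20.1%, 14.1% to 17.5% and 12.7% to 17.9%. Both shares were thus below vehicle in every peptide library, whereas that of Psmb10 overlapped. By level, 2 of 3 immune subunits under 7aaRGD and 3 of 3 under 7aaRAE lay below every vehicle sample, against 6.39% and 9.46% of genes. Psmb8, Psmb9 and Psmb10 were at -0.39, -0.35 and -0.20 under 7aaRGD and at -0.42, -0.49 and -0.32 under 7aaRAE, Pomp at -0.22 and -0.26 and Nfe2l1 at 0.05 and 0.02, with none past the threshold, and no gene of the other lists passed.

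Between 7aaRGD and 7aaRAE in U87-MG, 0% of genes were higher and 0% lower. An unadjusted p under 0.05 was found for 1 of 44 members and 327 of 9665 genes. The extremes were Psmg1 (6.18 against 7.80 RPKM, -0.30) and Psmd10 (12.2 against 11.1 RPKM, 0.13), both at a limma adjusted p of 1.00. The 95% intervals of the 44 differences, taken singly, lay between -0.62 and 0.56 at their outermost ends, both of Psme4, and the narrowest, of Psmd11, ran from -0.14 to 0.16. Psmb8, Psmb9, Psmb10, Pomp and Nfe2l1 were at 0.03, 0.13, 0.13, 0.04 and 0.02. Psma8 was 2.29, 2.32 and 2.04 RPKM under vehicle, 1.39, 1.27 and 1.39 RPKM under 7aaRGD and 2.13, 1.48 and 1.62 RPKM under 7aaRAE. The vehicle and 7aaRGD samples of Psma8 did not overlap, and the difference did not pass (-0.45, SE 0.10, limma adjusted p = 0.941).

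Across tables, levels of the U87-MG samples are given beside those of GL261 as a description with no test. Core over regulatory particle was 1.11 to 1.19 under U87-MG vehicle, the share of Psmb9 in its pair 18.1% to 20.1%, and Psme1 averaged 71.7 RPKM, against 157 RPKM under GL261 vehicle at day 28 and 205 RPKM at day 21. The order of the 44 members by level was similar in all groups, with a Spearman coefficient across genes between 0.902 and 0.953 against naive. Genes are not independent replicates, and the coefficient is a description. Psmd1 averaged between 13.1 and 16.4 RPKM over all 11 groups. Psmc1 was 39.3 RPKM under vehicle at day 21 and 68.4 RPKM under vehicle at day 28, whereas Psmc3, of the same ring, was 52.9 and 51.7 RPKM in these groups.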

How the data were processed

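CD11b+ cells were sorted and their poly-A RNA was sequenced with a stranded kit. According to the methods of the study, the authors trimmed reads (Trimmomatic), aligned them to mm10 (STAR), flagged duplicates (Picard) and counted genes on the reverse strand (HTSeq 0.11.1). The deposited values of the 3 tables are read here as RPKM plus a constant of 2, since 49.8% to 52.4% of rows hold 2 in every sample of a table and the rest, times exonic length, sums to nearly the same total in each library. In each library 3.13% to 8.78% of values lay below the constant (at the lowest, -0.422 after subtraction), which plain RPKM cannot give. The step that made these values is not given in the sources used here, and its effect on the spread between samples was not tested. Here 2 was subtracted, and log2(RPKM + 1) was used. Protein-coding genes (21849 rows, by the mouse annotation matched to 98.7% of rows) averaging 1 RPKM or more over the samples of a fit were tested in each table with limma 3.58.1 (R 4.3.3, trended empirical Bayes), with Benjamini-Hochberg adjustment over all genes tested and a threshold of 0.05. The comparison with naive used only its own 6 samples, and the others used all treated groups of a table. The script was tested on simulated data. A log2 fold change on this scale understates the change of genes with low values. Groups came from the labels, and the columns of the U87-MG table carry no replicate numbers. Where labels give a number, deviations of samples with the same number had r over 0.1 in 1 of 18 pairs at day 21 and 3 of 19 at day 28. The r ran from -0.77 to 0.12 and from -0.50 to 0.37. These values cannot show that the numbers carry no batch. Alternatives were the pseudocount, the filter, library scaling, the set of rows, the trend, the samples fitted, a block and leaving out each sample. A fit that took 1 from the residual degrees of freedom (the residuals of both GL261 tables had 1 dimension fewer than their degrees of freedom) and one without 2 U87-MG libraries were chosen after seeing the data. Genes named with values were every member with a level, the members past the threshold or else those with the largest rise and fall, the listed genes past the threshold (immunoproteasome, partners, control, ubiquitin, up to 5 a list), and always Psmb8, Psmb9, Psmb10, Pomp and Nfe2l1. Members and lists were chosen with earlier results of these data known. Some genes of the partner and ubiquitin lists are not reported here and are not in their counts.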

Additional observations from a re-analysis of the deposited data

Results flagged for a closer look

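Of 98 sets of 4 samples at day 28, 4 had 1 sample far from the others (gap over the range of the set above the 95% critical value of Dixon), where chance alone gives about 1 in 20. All 4 were the third 7aaRGD sample. It had 15.3 RPKM of Psma3 (18.7 to 19.1 RPKM in the others), 19.2 RPKM of Psmd12 (22.7 to 22.8 RPKM), 24.1 RPKM of Psmd7 (29.3 to 29.5 RPKM) and 19.1 RPKM of Psmg4 (22.2 to 22.7 RPKM).

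Under 7aaRAE against vehicle, no member passed the threshold in either tumor, but for 2 members every 7aaRAE sample lay above every vehicle sample in one tumor and below every vehicle sample in the other. Psma6 had a log2 fold change of 0.24 in U87-MG and -0.082 in GL261 at day 21, and Psmd8 had 0.17 and -0.13. Over all genes tested, 7.00% were so separated upward in U87-MG and 6.49% downward in GL261 at day 21. The share of genes separated in both tumors was not counted. The tables were normalized separately, and the difference between tumors was not tested.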

How the results depend on the processing

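Of 932 values of single members under the alternatives, 872 remained past the threshold, 60 did not and 0 changed sign. Of 215 counts of called members, 8 moved by more than 1.5 times. For 7aaRGD at day 28 the count was 1 (Psmg4) in place of 0 with a pseudocount of 5, a mean of at least 5 RPKM, median-of-ratios factors, upper-quartile factors or all rows with a gene name. For anti-PD-1 it was 2 (Psmc1 and Psme2) in place of 6 with the replicate number as a block, and ranged from 2 to 7 when single samples were left out, with 2 without the second and 3 without the third anti-PD-1 sample. For the combination, leaving out single samples gave 8 to 14 members, and for vehicle against naive 33 to 36. Of 9 fits with the block, 1 moved a count, and the shared number is not a pairing by design. The cause of these changes was not tested. Psmd10 under anti-PD-1 fell short in 8 of 18 alternatives and Psmb4 under the combination in 9 of 18. Depth is unknown, and small changes in members under 5 RPKM are the least certain.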
